A study of Mus musculus with 3 samples.

Results

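The array carried 144 capture probes named for human microRNAs of 2 kinds, and mouse RNA was hybridised to all of them. The first kind comprised 39 probes numbered miR-515 to miR-527, which belong to the large microRNA cluster on human chromosome 19. The second comprised 105 probes numbered miR-548 to miR-663, most of which were annotated in human cells. The probes were chosen by name and number from 1491 probe identifiers on the array, mismatch probes were left out, and 13 conserved microRNAs of the same numbers (miR-551b, miR-574, miR-582, miR-590, miR-592, miR-598, miR-615, miR-652 to miR-656 and miR-660) were set aside. Probes for miR-498 and miR-512, which also belong to the chromosome 19 cluster, lie outside these numbers. The label primate-specific did not hold for every probe. The RefSeq mouse annotation (GRCm38.p6) names a Mir568 and a Mir599 gene, so miR-568 and miR-599 are described on their own below.

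The study profiled microRNAs in mouse CD4+CD8+ T cells of the Balb/c background in 3 groups: ICN1 tumor cells, non-malignant cells expressing ICN1, and control normal thymocytes. ICN1 is the usual name of the active intracellular part of the Notch1 receptor, and the series was deposited as a profile of T-cell acute lymphoblastic leukaemia cells. Each group had 1 array, and the labels used here do not say how ICN1 was introduced, which animals gave the cells or whether animals were pooled. On each array the sample carried the dye Hy3, and a pool of equal amounts of all 3 samples carried Hy5, so the Hy5 reading of a probe is the same RNA measured on 3 arrays. A test between groups is not possible with 1 array each, and array, hybridisation and group cannot be told apart. Errors are SDs over the replicate spots of a probe (4 spots, each in a different block of the slide), which measure the spread within an array and not between animals.

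MicroRNAs are short RNAs that guide Argonaute proteins to messenger RNAs, mainly through bases 2 to 8, the seed. The human chromosome 19 cluster is found in primates, is expressed mainly in the placenta and in pluripotent cells, and consists of many copies of related hairpins. Many of its 3p arms carry the core AAGUGC near their 5′ end, which they share with the miR-302 and miR-371 families of embryonic stem cells and with the miR-17 family, which promotes proliferation of lymphocytes. The miR-548 family of humans derives from a transposable element. Rodents lack the cluster, so the mouse RNAs printed here are those that share its AAGUGC core. The sequences of the human probes themselves were not used here. The 6 mouse microRNAs are shown because they have probes of the same name on the array and allow the cluster's probes to be read beside relatives that mouse cells do make. Sequences are from RefSeq (GRCm38.p6), written 5′ to 3′ with the seed in capitals.
mmu-miR-17-5p: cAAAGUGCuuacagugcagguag
mmu-miR-20a-5p: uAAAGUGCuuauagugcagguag
mmu-miR-93-5p: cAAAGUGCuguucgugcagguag
mmu-miR-106b-5p: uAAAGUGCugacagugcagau
mmu-miR-302b-3p: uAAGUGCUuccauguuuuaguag
mmu-miR-302d-3p: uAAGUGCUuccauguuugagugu

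In all 6 the letters AAGUGC lie inside the capitals, starting 1 base earlier in the miR-302 pair than in the other 4. Of 1679 mature mouse microRNAs in the RefSeq table, 16 hold AAGUGC within bases 2 to 8.

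A probe was called detected where at least 2 of its 4 spots (a share of 0.5 of the usable ones) had a mean signal above the local background median plus 2 background SDs. In Hy3, 74 of 144 probes (51.4%) were detected on the ICN1 tumor array, 68 (47.2%) on the non-malignant ICN1 array and 72 (50%) on the control array. Over all non-control probes the shares were 60.4% on the ICN1 tumor array, 53.1% on the non-malignant ICN1 array and 57.8% on the control array, so the human probes lay somewhat below the background share on each array. Of the probes with a mouse microRNA gene of the same name, 163 of 264 (61.7%), 150 of 264 (56.8%) and 161 of 265 (60.8%) were detected on the 3 arrays in that order. These are called mouse-named probes below, although they too carry names of human microRNAs, and human probes stands for the 144 alone. The 13 conserved microRNAs set aside gave 5, 4 and 4 detected. Another 29 human-named probes of other numbers, with no mouse gene of the same name, gave 19, 16 and 17 (65.5%, 55.2% and 58.6%). Those shares lay above the shares over all non-control probes.

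The pool channel gave lower counts. In Hy5, 35 of the 144 probes (24.3%) were detected on the ICN1 tumor array, 39 (27.1%) on the non-malignant ICN1 array and 37 (25.7%) on the control array, against 28.0%, 29.0% and 30.2% of all non-control probes. Every human probe detected in Hy5 on an array was also detected in Hy3 there. The pool holds the same 3 samples as the Hy3 channels, and 39, 29 and 35 of the 144 human probes passed in Hy3 and not in Hy5 on the 3 arrays. Over all non-control probes 435 of 1337, 321 of 1336 and 370 of 1338 did so, so this was not particular to the human probes.

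The array's own controls passed this limit in Hy3 as well. Of 8 negative control probes, 4 were detected on the ICN1 tumor array, 3 on the non-malignant ICN1 array and 3 on the control array, and none was detected in Hy5. Their highest Hy3 signals above background were 34.7, 31.6 and 40.0 intensity units on the 3 arrays. None of the 320 empty spots of each array, where no probe was printed, passed in either dye. Against the brightest negative control in place of the local limit, a comparison chosen after the values were seen, 52, 55 and 49 of the 144 human probes lay above it in Hy3 on the 3 arrays, against 43.4%, 45.5% and 43.0% of all non-control probes.

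The human probes fell into 3 main classes, which were drawn after the values were seen. In the first, 34 probes were detected in both dyes on every array, 10 of them from the chromosome 19 cluster. In the second, 24 probes were detected in Hy3 on every array and in Hy5 on none. In the third, 64 probes were detected in Hy3 on no array. These classes held 23.6%, 16.7% and 44.4% of the human probes. They held 34.0%, 15.8% and 34.3% of probes with a mouse gene of the same name and 22.9%, 17.8% and 44.9% of mismatch probes. For probes labelled as having no known human target the shares were 25%, 25.5% and 32.5%. For those named miRPlus they were 25.2%, 7.28% and 55.0%. Of the remaining probes, 3 were detected in Hy3 on every array and in Hy5 on some, and 19 were detected in Hy3 on 1 or 2 arrays. The lowest Hy3 signal of a probe detected on every array was 19.5 units, and the highest of a probe detected on none was 18.9 units, so the limit divides a continuous range.

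The classes differed in how much their signal moved between arrays. The 34 probes detected in both dyes had median Hy3 signals of 267 units on the ICN1 tumor array, 499 on the non-malignant ICN1 array and 584 on the control array, and the highest array exceeded the lowest by 1.78-fold for the median probe and by up to 5.32-fold. The 24 probes seen in Hy3 alone had medians of 40.9, 37.4 and 40.8 units, and their highest array exceeded the lowest by 1.14-fold for the median probe and by at most 1.77-fold. The 3 negative controls that passed on every array had a median ratio of 1.14 between their highest and lowest arrays and signals of 22.2 to 40.0 units. Probes of other classes seen in Hy3 alone had similar median ratios. These were 1.18 for mouse-named probes, 1.14 for those with no known human target, 1.14 for miRPlus and 1.21 for mismatch probes. Their largest ratios were 2.90, 3.43, 3.95 and 2.47. In Hy5 the human probes had medians of -10.1, -16.2 and -10.8 units, and 96, 96 and 92 of them were darker than their local background. Printed probes in general showed this: over all non-control probes the Hy5 medians were -8.41, -14.4 and -9.57 units, and 840 of 1337, 854 of 1336 and 808 of 1338 were darker than background. The empty spots had Hy5 medians of 0.985, 0.733 and 1.09 units.

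Within the chromosome 19 cluster the arms of the hairpin stood apart. The assignment of names to arms follows human annotation and was made after the values were seen, so the counts are a description. Of 13 probes for 5p arms, 12 were detected in Hy3 on each array, and 9, 10 and 10 were detected in Hy5 on the ICN1 tumor, non-malignant ICN1 and control arrays. Of 26 probes for 3p arms, 11, 8 and 9 were detected in Hy3 and 1, 2 and 1 in Hy5. Median Hy3 signals were 166, 320 and 319 units for the 5p arms and 14.6, 6.36 and 8.78 units for the 3p arms. Intensities of different probes are not amounts of RNA, because probes differ in affinity, and members of the cluster resemble each other in sequence, so these probes are not independent of each other.

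The brightest probe of the cluster was miR-518c*, a 5p arm. It gave 1862 ± 97 units in ICN1 tumor cells, 2405 ± 82 in non-malignant cells expressing ICN1 and 2463 ± 57 in control thymocytes, and the pool read 2122, 2617 and 2729 units on the same arrays. Sample and pool were therefore lowest on the same array. The combined probe miR-518f*-526a, which captures 2 near-identical 5p arms, followed with 402 ± 61, 864 ± 105 and 895 ± 59 units. The next 5p probes, miR-526c, miR-519e*, miR-525, miR-527 and miR-516-5p, lay at 330, 195, 182, 166 and 218 units in ICN1 tumor cells, at 420, 487, 389, 404 and 320 in non-malignant cells expressing ICN1 and at 461, 484, 364, 358 and 319 in control thymocytes. The probe miR-517* was unlike these. It read 114, 109 and 111 units in Hy3 on the 3 arrays but -7.65, -17.6 and -9.85 units in the pool, and it was the brightest of the probes seen in Hy3 alone. The probe miR-515-5p was the 5p arm not detected on any array.

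Cluster probes whose human microRNA carries the AAGUGC core were listed from human annotation after the values were seen. The list was not checked against sequences and may be incomplete. Of its 11 probes, 3 were detected in Hy3 on each array. These were miR-519d, miR-520e and miR-526b*, and of them miR-519d was detected in Hy5, on every array. The probe miR-519d read 70.3 ± 2.6 units in ICN1 tumor cells, 58.4 ± 2.9 in non-malignant cells expressing ICN1 and 57.5 ± 3.3 in control thymocytes, with pool signals of 48.0, 55.3 and 60.4. The probe miR-520e read 75.2, 65.9 and 67.0 units in Hy3 but -16.3, -22.0 and -19.4 units in the pool. The median probe of the 11 lay at 3.28, -4.10 and -1.83 units in Hy3, at the level of the local background.

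Probes for microRNAs outside the cluster with this core gave a divided picture. The 13 such probes include miR-371 to miR-373, human microRNAs with no mouse gene of that name in the RefSeq table. Of the 13, 5 were detected in both dyes on every array: miR-17-5p-106a, both miR-20a probes, miR-20b and miR-106b. Their Hy3 signals ranged over 242 to 1295 units in ICN1 tumor cells, 348 to 3705 in non-malignant cells expressing ICN1 and 512 to 5587 in control thymocytes. The other 8, for miR-93, the miR-302 family and miR-371 to miR-373, lay at 20.1 units or less on every array. Among them miR-302a and miR-302d were detected in Hy3 on the ICN1 tumor array and on no other. The sequences printed above for miR-17-5p and miR-93-5p share the seed and the last bases, and their probes stood on opposite sides of the limit.

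Among the probes numbered miR-548 to miR-663, 51, 48 and 51 of 105 were detected in Hy3 on the 3 arrays and 25, 27 and 26 in Hy5. The brightest was miR-612, which in human lies within the long noncoding RNA NEAT1. It gave 8783 ± 200 units in ICN1 tumor cells, 13976 ± 408 in non-malignant cells expressing ICN1 and 13544 ± 261 in control thymocytes, and the pool read 10003, 15180 and 15237 units on those arrays. After normalization its ratio to the pool differed by 0.11 on the log2 scale between ICN1 tumor and control. The lower Hy3 signal on the ICN1 tumor array thus came with a pool signal lower by a like factor.

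The second brightest, miR-659, is described with the comparisons between groups. The third was miR-663, with 4058 ± 272 units in ICN1 tumor cells, 4320 ± 283 in non-malignant cells expressing ICN1 and 5820 ± 530 in control thymocytes. The probes miR-658, miR-623, miR-583 and miR-602 gave 2334, 2294, 1953 and 1826 units in ICN1 tumor cells. They gave 2934, 2634, 2338 and 2007 in non-malignant cells expressing ICN1 and 3175, 2798, 2474 and 2423 in control thymocytes. The ICN1 tumor array was the lowest and the control array the highest for each of these 4. The pool had the same order for each. Its signals were 2792, 2345, 2251 and 2518 units on the ICN1 tumor array and 3714, 3358, 2896 and 2877 on the control array. Between ICN1 tumor and control the ratio to the pool differed by 0.11, 0.37, 0.16 and -0.06 for these 4. For miR-663 that ratio differed by 0.30. The probe miR-557 gave 1445, 1434 and 1957 units, and miR-617 gave 783 ± 114, 1192 ± 19 and 1646 ± 118 units. As normalized here, none of these probes differed by 2-fold between any pair of arrays in the ratio to the pool. Some did between ICN1 tumor and control under another normalization, given at the end.

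Among the 34 probes detected in both dyes, miR-625 had the largest ratio of Hy3 signals between arrays. Its microRNA lies in an intron of FUT8 in human. The probe gave 172 ± 34 units in ICN1 tumor cells, 662 ± 43 in non-malignant cells expressing ICN1 and 913 ± 223 in control thymocytes. Its pool signal was lower in parallel, at 241 on the ICN1 tumor array against 765 on the non-malignant ICN1 array and 1064 on the control array. The ratio to the pool differed by -0.11 between ICN1 tumor and control. The probe miR-584 gave 517 ± 62, 1251 ± 195 and 1462 ± 640 units, with pool signals of 1220, 2315 and 3048. On the control array 1 of its spots read 2410 units in Hy3 and 5202 in Hy5, while the other 3 read 1019 to 1259 in Hy3.

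This parallel movement of sample and pool held for most of the 34 probes detected in both dyes. Between the ICN1 tumor and control arrays Hy3 was lower for 30 of 34, with a median log2 difference of -0.63, and the pool was lower for 34 of 34, with a median of -0.69. The Hy3 and Hy5 differences lay within 0.5 of each other on the log2 scale for 28 of the 34 probes. Across the 34 probes they correlated with r = 0.63, a description over probes that share the same arrays and spots. For 90 mouse-named probes of the same class the median was -1.31 in Hy3 and -0.51 in Hy5, the 2 differences lay within 0.5 for 31 probes, and r was 0.068. Some other probe classes also showed sample and pool moving in parallel, and mismatch probes did so less. For 184 probes that the files name as having no known human target, the medians were -0.68 in Hy3 and -0.54 in Hy5, with 137 within 0.5 and r = 0.45. For 38 probes named miRPlus they were -0.67 and -0.45, with 29 within 0.5 and r = 0.41. For 27 mismatch probes they were -0.98 and -0.26, with 15 within 0.5 and r = -0.22. Since the pool was 1 RNA mixture, its differences between arrays are not differences between cells.

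Between non-malignant ICN1 and control the same 34 human probes had median log2 differences of -0.12 in Hy3 and -0.096 in Hy5, and the differences lay within 0.5 of each other for 34 of 34. Between ICN1 tumor and non-malignant ICN1 the medians were -0.51 and -0.58, and 30 of 34 lay within 0.5.

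For the comparisons between groups, the log2 ratio of sample to pool was normalized within each array, and a probe entered a comparison where it was detected in Hy3 on at least 1 of the 2 arrays. A size rule of 2-fold was used, with no p-value. Of 79 human probes compared between ICN1 tumor and control, 2 were at least 2-fold higher and 0 were lower, against 1.19% higher and 4.78% lower over all non-control probes. The median difference of the 79 was 0.03 and the range -0.58 to 1.63, and 74 lay within 0.5 of 0. Among 172 mouse-named probes 1 was higher and 25 were lower. The SD over probes was 0.28 for the human probes and 0.74 for the mouse-named probes.

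Between ICN1 tumor and non-malignant ICN1, 2 of 80 human probes were at least 2-fold higher and 0 lower, against 0.841% and 2.76% over all non-control probes, and the differences ranged from -0.38 to 1.27. Between non-malignant ICN1 and control, none of 74 human probes was 2-fold higher or lower, against 0.896% and 0.768% over all non-control probes. Those 74 ranged from -0.32 to 0.36 with an SD over probes of 0.11. These comparisons share arrays in pairs, so their values are given side by side and are not independent of each other.

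The 2 probes above 2-fold were miR-659 and miR-637 in both comparisons with ICN1 tumor. The probe miR-659 gave 6335 ± 243 units in ICN1 tumor cells, 4284 ± 79 in non-malignant cells expressing ICN1 and 4660 ± 324 in control thymocytes. All 4 spots on the ICN1 tumor array, 6036 to 6563 units, lay above the 4179 to 4368 units of non-malignant ICN1 and the 4424 to 5122 units of control. Its pool signal was lower on the ICN1 tumor array, with 4503 units on the ICN1 tumor array against 6869 on the non-malignant ICN1 array and 6886 on the control array. The log2 ratio to the pool was higher by 1.18 ± 0.02 (SE over spots) against control and by 1.21 ± 0.01 against non-malignant ICN1. In Hy3 alone the ICN1 tumor signal was 1.36 times that of control, and the pool's was 0.654 times, so part of the 2.26-fold difference in the ratio lies in the pool.

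The probe miR-637, which in human lies in an intron of DAPK3, gave 253 ± 11 units in ICN1 tumor cells, 109 ± 26 in non-malignant cells expressing ICN1 and 138 ± 112 in control thymocytes. The large SD on the control array came from 1 spot at 305 units, whose pool signal of 616 was also the highest, while the other 3 read 73.5 to 98.2 units. On the ICN1 tumor array the 4 spots read 242 to 268 units, so they overlapped the control array only through that spot. Its mean pool signals were 124.7 units on the ICN1 tumor array, 150.8 on the non-malignant ICN1 array and 269.0 on the control array. The log2 ratio was higher by 1.63 ± 0.04 against control and by 1.27 ± 0.03 against non-malignant ICN1. Against control the Hy3 signal was 1.83 times and the pool's 0.464 times, both with that spot included. Against non-malignant ICN1 they were 2.32 and 0.827 times. Part of each difference in the ratio thus lies in the pool. With Hy3 alone the calls depended on the scaling. Centred on the median of each array, miR-637 was higher by 0.88 and miR-659 by 0.59 against control, and by 0.92 and 0.63 against non-malignant ICN1, all below 2-fold. Quantile-normalized, they were higher by 1.41 and 1.10 against control and by 1.48 and 0.97 against non-malignant ICN1.

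Between these probes and the rest lay miR-611, with 118 ± 5 units in ICN1 tumor cells, 61.5 ± 7.8 in non-malignant cells expressing ICN1 and 67.9 ± 3.0 in control thymocytes. It is named because it stood next after the 2 probes, seen after its values were known. Its pool signal was 58.1, 62.1 and 63.2 units, nearly level, and its ratio was higher by 0.77 against control. Erythroid microRNA probes (miR-451, miR-144 and miR-486, all 3 detected on each array) summed to 642 units in ICN1 tumor cells, 11753 in non-malignant cells expressing ICN1 and 24002 in control thymocytes. Most of each sum was miR-451, at 505, 11409 and 23628 units. While miR-486 followed the same order (105, 197 and 285 units), miR-144 was highest in non-malignant ICN1 cells (31.6, 147 and 89.1 units). Thymocyte and T-cell probes were detected at 8, 7 and 8 of 8, with sums of 8858, 18616 and 24453. Most of each sum was miR-142-3p, at 5988, 10024 and 12456 units, and miR-142-5p, at 1469, 6819 and 8916. The probe miR-181a read 43.8, 80.9 and 175 units. The part of the erythroid, thymocyte and T-cell microRNAs in the 2 calls was not tested.

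The 19 probes detected on 1 or 2 arrays had mean Hy3 signals of at most 56.8 units, beside a median limit of 20.2, 23.3 and 22.0 units on the 3 arrays. The probe miR-518d was detected in ICN1 tumor cells at 19.7 ± 0.3 units and in non-malignant ICN1 cells at 56.8 ± 58.9 units, and read 12 ± 3.4 in control thymocytes. On the non-malignant ICN1 array 2 of its spots read 88.9 and 124 units in Hy3 and 129 and 157 in Hy5, and the other 2 read 5.07 and 9.50 in Hy3 and below 0 in Hy5. The probe miR-552, detected in Hy3 on every array, likewise had 1 spot of 288 units beside 37.6 to 62.3 on the non-malignant ICN1 array.

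The probe miR-629 read 18.1 ± 2.4 units in ICN1 tumor cells, below the limit, 46.1 ± 22.1 in non-malignant cells expressing ICN1 and 37.9 ± 7.5 in control thymocytes. Its pool signal was also lowest on the ICN1 tumor array, at 5.42 units against 40.7 and 26.3. The ratio to the pool differed by -0.14 between ICN1 tumor and control. The probe miR-525*-524 read 17.7 ± 3.2, 22.7 ± 2.0 and 43.4 ± 3.0 units and was undetected on the ICN1 tumor array. Its ratio to the pool, lower by 0.58 against control, was the lowest of the 79 human probes. That ratio rests on a pool signal detected on no array, at 9.94 ± 8.35, -8.17 and 1.19 units. With Hy3 alone, median-centred, the difference was -0.36. The probe miR-618 was undetected in non-malignant ICN1 cells, at 22.9 ± 6.8 units, against 38.9 ± 0.9 in ICN1 tumor cells and 37.6 ± 2.4 in control thymocytes. The probe miR-635 was undetected in ICN1 tumor cells, at 19 ± 3.7 units, and read 35.1 ± 11.2 and 34.2 ± 11.8 in non-malignant cells expressing ICN1 and control thymocytes. Its pool signals, detected on no array, were 2.52, 12.3 and 14.5 units on the 3 arrays. Its ratio to the pool differed by -0.11 between ICN1 tumor and control.

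The probes with a mouse gene of the same name were not among the bright ones. Mouse miR-568 is shown as the mouse RNA that its probe could meet.
mmu-miR-568: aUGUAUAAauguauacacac

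The probe miR-568 was detected on no array. It read 13.7 ± 4.3 units in ICN1 tumor cells, 4.88 ± 1.51 in non-malignant cells expressing ICN1 and 8.56 ± 3.43 in control thymocytes, with pool signals below 0 on each. The probe miR-599 was detected in Hy3 on each array, at 29.8 ± 3.1, 19.5 ± 4.6 and 25.7 ± 0.9 units, and in the pool on none. Its signals lay below those of the brightest negative control on the same arrays. Of the 4 probes of the miR-548 family, miR-548b was detected in Hy3 on each array at 35.5, 30.4 and 30.6 units, the other 3 on none, and no member in the pool.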

How the data were processed

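Total RNA from 3 samples was hybridised with a pool of all 3 to 2-colour LNA arrays, per the labels' protocols. The deposited scanner files, 1 per dye, give each spot's mean and median intensity and its local background, and spot flags as a score, as the authors' image analysis wrote them. Spots with flag 3 were left out (3 to 6 of 576 spots of these probes per array). Signal was the mean minus the background median, averaged over spots. The log2 ratio of Hy3 to Hy5 was computed in R 4.3.3 with limma 3.58.1 (normexp, offset 50, then loess of span 0.3, with control and mismatch spots at weight 0). The calculation was tested on simulated data: changes in few bright probes came back close to their size, but where most bright probes changed the loess took up part of the change. The probes named by rule were the 10 brightest, those at 2-fold or more, 5 detected on 1 or 2 arrays, and those with a mouse gene of the same name. Values of other probes are also given, such as those with an outlying spot or the largest ratio between arrays. Those probes lie outside the rule and were picked with their values known. The median local background was 70 to 82 units in Hy3 and 88 to 100 in Hy5, and no spot of these probes was saturated. The number of arrays, 1 per group, limits the precision. The deposited series table was not used, since 1 of its 345 row numbers matched a probe identifier. Alternatives changed the detection limit, dye, background correction, normalization and filter. Members and lists were chosen with earlier results of these data known.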

Additional observations from a re-analysis of the deposited data

How the results depend on the processing

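No paired analysis was possible because each group had 1 array. The counts of detected probes depended on the limit. Above the 95th percentile of empty spots 118 were detected on the ICN1 tumor array and 97 on all 3 (84.1% and 70.9% of all non-control probes). Above the 95th percentile of mismatch probes 17, 16 and 16 were detected on the ICN1 tumor, non-malignant ICN1 and control arrays and 15 on all 3 (11.4%, 9.58%, 9.72% and 8.82% of all non-control probes). The pool dye alone gave 35, 39 and 37, and 34 on all 3, and requiring both dyes (chosen after the data were seen) gave the same numbers. With 3 or 1 background SDs, spot medians, flagged spots kept, or every spot passing, the counts stayed within 1.5 times of those reported. Normexp-corrected median signals were 80.3, 81.7 and 88.9 units, which include the offset of 50.

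Between ICN1 tumor and control, a loess fitted on mouse-named probes made 9 human probes at least 2-fold higher and 0 lower, against 6.21% higher and 1.67% lower over all non-control probes, whose median it moved to 0.10. The 9 were miR-518c*, miR-583, miR-611, miR-612, miR-623, miR-637, miR-658, miR-659 and miR-663. Under that loess miR-612 differed by 1.63 and miR-518c* by 1.03, each against 0.11 as reported. Hy3 alone, median-centred, gave 0 higher and 3 lower (miR-584, miR-625 and miR-628), against 0.240% and 10.1%. Quantile-normalized Hy3 gave 2 higher (miR-637 and miR-659) and 1 lower (miR-625), against 1.20% and 3.71%. Normexp with offset 10 gave 3 higher (adding miR-611) and 1 lower (miR-525*-524), against 2.03% and 6.21%.

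Between ICN1 tumor and non-malignant ICN1, the loess on mouse-named probes gave 5 higher and 0 lower, against 3.12% and 1.56%. Hy3 median-centred gave 0 higher and 3 lower, against 0.120% and 8.77%. Quantile-normalized Hy3 gave 1 higher (miR-637) and 0 lower, against 0.841% and 2.88%. Between non-malignant ICN1 and control the counts were 0 and 0 under each alternative that was counted. Hy3 not normalized was not among those counted. The cause of the changes in these counts was not tested.

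Among the named probes, no difference reported at 2-fold or more changed sign, but 116 of 699 values under the alternatives had the opposite sign to a smaller reported difference (at most 0.53 in size). The difference of miR-518d between non-malignant ICN1 and control was -0.24 as reported, 0.56 with Hy3 median-centred, 0.53 with Hy3 quantile-normalized and 2.24 with Hy3 not normalized (chosen after the data were seen).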
